A study of Homo sapiens with 6 samples.

Results

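The 10 genes described here stand at successive steps of bone morphogenetic protein (BMP) signalling: the ligands BMP2 and BMP4, the antagonists GREM1 and BAMBI, the inhibitory SMAD genes SMAD6 and SMAD7, and the inhibitor of DNA binding genes ID1, ID2, ID3 and ID4. Every probe set whose platform annotation gave exactly 1 gene symbol, that symbol being one of the 10, was taken. This gave 26 of the 49293 probe sets tested and 10 of the 18132 genes. The 10 genes were chosen by a rule drawn up when their log2 fold changes in the knockdown comparison were already known, so their own differences between the groups are given as a description. Calls of these genes in the fit over all genes are counted beside the share of all genes called, and no claim rests on them. Tests are given for 75 other genes of the pathway, listed by role when earlier results of these data were also known.

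The arrays came from U87, an established human glioma cell line. In the PCGF1-shRNA group (3 arrays) cells were given a lentivirus encoding a short hairpin RNA that targets PCGF1, and in the NC group (3 arrays) with a negative control lentivirus. Both groups were grown in DMEM with fetal bovine serum, total RNA was taken with Trizol, and the arrays are called biological replicates without a statement that they came from separate cultures, so the spread between them may be partly technical. The sample names carry T0 for every PCGF1-shRNA array and T1 for every NC array, unexplained, and this cannot be told apart from the knockdown. How many hairpins were used, whether a line was 1 clone and how long after infection RNA was taken are not given in the sources used here.

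BMP ligands bind paired serine/threonine kinase receptors, which phosphorylate SMAD1, SMAD5 and SMAD9; these join SMAD4 and enter the nucleus. The ID genes are among the most direct targets. ID proteins have a helix-loop-helix but no DNA-binding region, so they hold basic helix-loop-helix (bHLH) factors off DNA, and in glial lineages BMP signalling and ID proteins are known for steering progenitors away from neuronal and oligodendrocyte fates. SMAD6 and SMAD7 are induced by the pathway and then inhibit it, and the secreted protein gremlin, encoded by GREM1, traps BMP2 and BMP4. PCGF1 belongs to the variant Polycomb complex PRC1.1, whose subunit KDM2B binds unmethylated CpG-rich DNA.

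The upstream sequences of 5 target genes with 1 RefSeq start each are shown because 3 of them were higher in PCGF1-shRNA cells and 2 differed little. They are the 250 bases before the RefSeq start in GRCh38.p14, written 5′ to 3′ on the gene's strand. Capitals mark GTCT and its reverse complement AGAC, the short SMAD-binding letters.
ID3, chr1:23559502-23559751, minus strand: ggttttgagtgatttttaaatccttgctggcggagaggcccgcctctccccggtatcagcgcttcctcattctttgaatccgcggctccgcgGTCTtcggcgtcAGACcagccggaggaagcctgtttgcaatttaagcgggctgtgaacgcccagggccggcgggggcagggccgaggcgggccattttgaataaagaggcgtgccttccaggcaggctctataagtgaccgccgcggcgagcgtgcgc
ID2, chr2:8681806-8682055, plus strand: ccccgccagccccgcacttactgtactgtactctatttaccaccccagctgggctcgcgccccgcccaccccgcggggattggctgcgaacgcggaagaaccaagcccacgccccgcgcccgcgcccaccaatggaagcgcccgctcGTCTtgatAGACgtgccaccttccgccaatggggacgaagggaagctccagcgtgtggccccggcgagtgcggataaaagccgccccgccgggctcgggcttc
SMAD6, chr15:66701986-66702235, plus strand: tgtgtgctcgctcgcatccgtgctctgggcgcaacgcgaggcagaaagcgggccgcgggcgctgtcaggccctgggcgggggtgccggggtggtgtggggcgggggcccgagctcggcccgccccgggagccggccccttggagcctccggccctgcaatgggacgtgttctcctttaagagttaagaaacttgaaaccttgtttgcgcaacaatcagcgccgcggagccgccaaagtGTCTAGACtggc
ID1, chr20:31605039-31605288, plus strand: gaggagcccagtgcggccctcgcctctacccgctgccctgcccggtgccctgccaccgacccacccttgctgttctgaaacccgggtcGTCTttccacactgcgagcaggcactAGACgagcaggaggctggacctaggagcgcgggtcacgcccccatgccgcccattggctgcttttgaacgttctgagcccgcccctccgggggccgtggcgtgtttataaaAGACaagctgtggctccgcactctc
ID4, chr6:19837120-19837369, plus strand: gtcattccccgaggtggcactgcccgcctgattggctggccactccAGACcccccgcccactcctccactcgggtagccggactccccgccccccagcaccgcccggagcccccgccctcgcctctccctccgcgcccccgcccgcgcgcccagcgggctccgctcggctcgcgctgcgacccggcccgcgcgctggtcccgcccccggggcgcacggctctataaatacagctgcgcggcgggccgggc

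GTCT was searched on both strands, and 77.5% of 35116 windows of the same length held it, so a match is common. ID3 and ID2 each held 2 matches, ID1 held 3 and ID4 held 1. The 3 windows of SMAD7, a target gene that differed little, held 4, 5 and 1. Whether the matches bear on the differences was not tested. At least 2 matches were found in 45.6% of all windows. In SMAD6 the GTCT and AGAC letters adjoin and form the palindrome GTCTAGAC, which begins 12 bases before the start and overlaps both single matches. The palindrome was present in 64 of the 35116 windows, or 0.182%, and in no other window of the genes described here. Sequence outside the windows was not searched. Absence from a window, as for SMAD7, therefore does not show that the gene lacks the palindrome. GGCGCC, a GC-rich sequence bound by BMP SMADs and its own reverse complement, was in 16.4% of all windows and in none of the 5 printed ones. It occurred 3 times in the BAMBI window, 2 times in the first of 2 GREM1 windows and 1 time in the first of 3 BMP4 windows. These are letter matches and not known binding sites.

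CpG content varied between the genes. The 250 bases held 24 CpG in ID3, 29 in ID2, 25 in SMAD6, 19 in ID1 and 34 in ID4, where the median over all windows was 11. BAMBI held 41, more than 98.3% of windows, and the 3 SMAD7 windows held 13, 13 and 2. The 3 BMP4 windows held 25, 17 and 27, and the 2 GREM1 windows 32 and 23. ID3, ID2 and SMAD6, higher in PCGF1-shRNA cells, held more CpG than 76.3%, 85.9% and 78.4% of windows. For ID1 and ID4, which differed little, these shares were 65.35% and 93.2%. Whether CpG content bears on the differences was not tested. Only the 250 bases before the start were counted, and binding of PRC1.1 to these genes was not tested. Windows were matched by symbol for 9 of the 10 genes, and BMP2 was not matched.

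The array table gives differences only. The authors' values are log2 signals in which every probe set is centred on the median of its 6 arrays, so how strongly a gene is expressed is unknown and levels cannot be compared between genes. PCGF1 itself, on 1 probe set, was at -0.27, -0.13 and -0.19 in PCGF1-shRNA arrays and at 0.13, 0.27 and 0.29 in NC arrays. Its transcript was at 74.3% of the NC level, and limma put the log2 fold change at -0.43 ± 0.06 (SE) with an adjusted p = 0.00410. An exact two-sided permutation test gave p = 0.1, the smallest p that 3 against 3 arrays allow. For the ACTB quality controls, the signal of the 3′ end less that of the 5′ end was 0.00643 to 0.106 in PCGF1-shRNA arrays and -0.0710 to 0.0375 in NC arrays. For the GAPDH controls it was -0.00767 to 0.0438 in PCGF1-shRNA arrays and -0.0143 to 0.00975 in NC arrays. The ranges of the groups overlap for both genes, and the part of this measure in the results was not tested. The controls are centred too, so these values only compare arrays and do not tell how intact the RNA was.

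The target genes did not move as a block. ID3 was the member with the largest difference, 1.51-fold higher in PCGF1-shRNA cells, followed by SMAD6 at 1.31-fold and ID2 at 1.15-fold. ID1, ID4 and SMAD7 were at 1.04-fold, 0.976-fold and 0.969-fold. All 4 ligands and antagonists had lower means in PCGF1-shRNA cells, but in BMP4 and BAMBI the arrays of the groups overlapped. In such bulk samples a change in the share of cells that express a gene and a change in RNA per cell cannot be told apart.

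**Figure D1:**
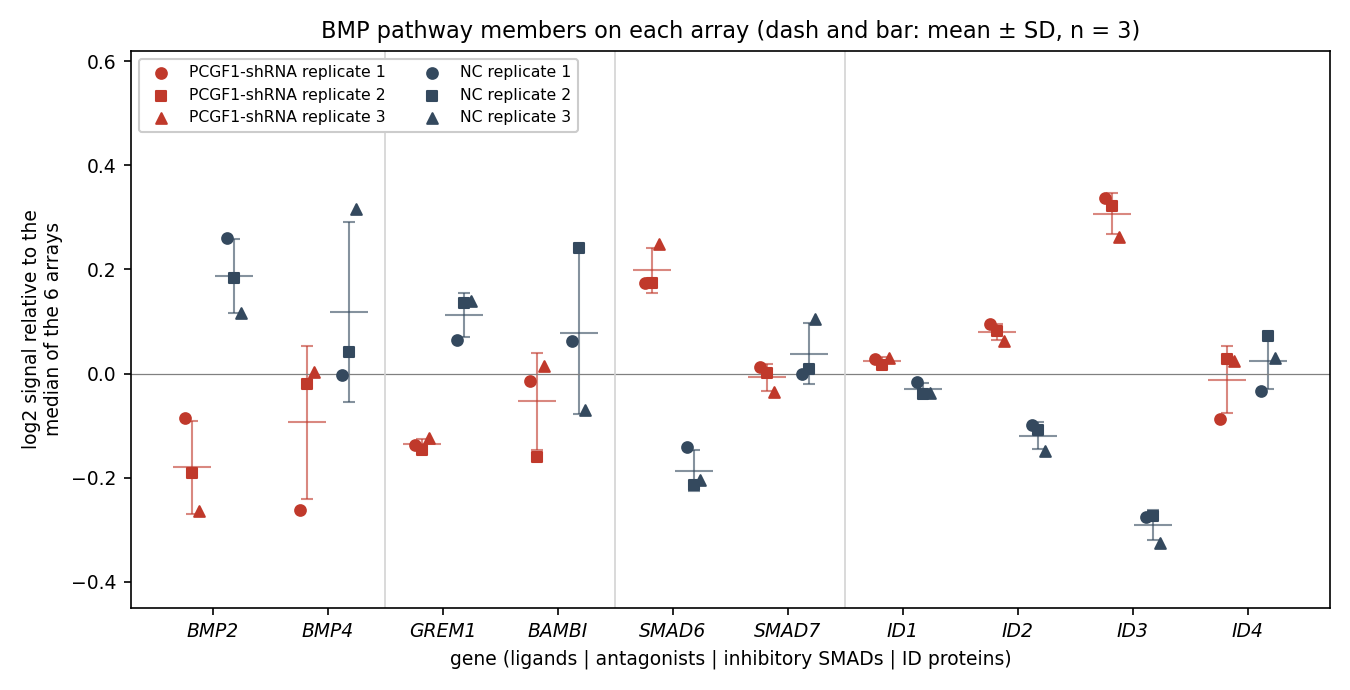
The vertical axis gives the log2 signal relative to the median of the 6 arrays for each of the 10 genes, with PCGF1-shRNA arrays in red on the left, NC arrays in dark blue on the right, a marker for each replicate, and the mean ± SD (n = 3). ID3, SMAD6, ID2 and ID1 lie higher and BMP2 and GREM1 lower on all 3 PCGF1-shRNA arrays than on any NC array, and the groups overlap for BMP4, BAMBI, SMAD7 and ID4.

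BMP2, a secreted ligand that acts through the type I and type II BMP receptors, was at -0.09, -0.19 and -0.26 (log2 signal) in PCGF1-shRNA arrays and at 0.26, 0.18 and 0.12 in NC arrays. Every PCGF1-shRNA array was below every NC array, with a gap of 0.20 between the groups. The group means were -0.18 ± 0.09 and 0.19 ± 0.07 (PCGF1-shRNA and NC, SD, n = 3 each), a log2 fold change of -0.37 ± 0.06 (SE) or 0.775-fold. Both probe sets were lower, one by -0.46 ± 0.10 and the other by -0.28 ± 0.05. BMP2 was number 133 by size among the 9675 genes with a negative fold change.

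BMP4, the closest relative of BMP2, was at -0.26, -0.02 and 0.002 in PCGF1-shRNA arrays and at -0.002, 0.04 and 0.32 in NC arrays. The distance between the group means came mostly from 1 low PCGF1-shRNA array and 1 high NC array, and the groups overlapped. The means were -0.09 ± 0.15 in PCGF1-shRNA arrays and 0.12 ± 0.17 in NC arrays (SD, n = 3 each). The log2 fold change of -0.21 ± 0.10 (SE, 95% interval -0.44 to 0.02) became -0.13 without PCGF1-shRNA replicate 1 and -0.11 without NC replicate 3. It rests on 1 probe set.

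GREM1 was at -0.14, -0.15 and -0.12 in PCGF1-shRNA arrays and at 0.06, 0.13 and 0.14 in NC arrays. All PCGF1-shRNA arrays were lower than all NC arrays. The group means were -0.14 ± 0.01 in PCGF1-shRNA cells and 0.11 ± 0.04 in NC cells (SD, n = 3 each), and the log2 fold change was -0.25 ± 0.04 (SE). Its 4 probe sets lay between -0.36 and -0.20, and in each of them the groups did not overlap. On its most variable probe set alone it was at -0.36 ± 0.10 (SE).

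BAMBI, a membrane protein shaped like a type I receptor without a kinase, which blocks receptor signalling, was at -0.01, -0.16 and 0.01 in PCGF1-shRNA arrays. NC arrays gave 0.06, 0.24 and -0.07, so the lowest NC array was below 2 of the PCGF1-shRNA arrays. The log2 fold change was -0.13 ± 0.08 (SE, 95% interval -0.32 to 0.06), on 1 probe set. It was -0.05 without NC replicate 2, -0.08 without PCGF1-shRNA replicate 2 and -0.20 without NC replicate 3.

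SMAD6, an inhibitory SMAD that acts mainly on BMP receptors and SMAD1, was at 0.17, 0.17 and 0.25 in PCGF1-shRNA arrays and at -0.14, -0.21 and -0.20 in NC arrays. The groups were apart by 0.31. The means were 0.20 ± 0.04 in PCGF1-shRNA arrays and -0.19 ± 0.04 in NC arrays (SD, n = 3 each), a log2 fold change of 0.39 ± 0.04 (SE). The average hides a wide split between its 3 probe sets. One gave 0.79 ± 0.06, the next 0.35 ± 0.08, and the third 0.02 ± 0.07 with overlapping groups. The most responsive probe set was at 0.49, 0.33 and 0.45 in PCGF1-shRNA arrays and at -0.45, -0.33 and -0.34 in NC arrays. The size of the SMAD6 difference therefore depends on the probe set, and which transcripts each one reads was not analysed here.

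SMAD7, the other inhibitory SMAD, which also restrains TGF-beta receptors, was at 0.01, 0.00 and -0.04 in PCGF1-shRNA arrays and at 0.00, 0.01 and 0.11 in NC arrays. The groups overlapped. The log2 fold change was -0.05 ± 0.04 (SE, 95% interval -0.15 to 0.05), and its 3 probe sets lay between -0.08 and 0.01. Without NC replicate 3 the log2 fold change was -0.01.

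ID3 was at 0.34, 0.32 and 0.26 in PCGF1-shRNA arrays and at -0.27, -0.27 and -0.32 in NC arrays. The gap of 0.54 between the lowest PCGF1-shRNA array and the highest NC array exceeds the range within either group. The means were 0.31 ± 0.04 in PCGF1-shRNA cells and -0.29 ± 0.03 in NC cells (SD, n = 3 each), a log2 fold change of 0.60 ± 0.04 (SE, 95% interval 0.50 to 0.69). Its 3 probe sets gave 0.57, 0.59 and 0.64. ID3 was number 27 among the 8457 genes with a positive fold change, and 0.325% of all genes had a larger change in either direction.

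ID2 was at 0.09, 0.08 and 0.06 in PCGF1-shRNA arrays and at -0.10, -0.11 and -0.15 in NC arrays. The groups did not overlap, and the log2 fold change was 0.20 ± 0.04 (SE, 95% interval 0.11 to 0.29). One of its probe sets gave 0.26 ± 0.05 and the other 0.14 ± 0.06. Both belong to the _s_at and _x_at kinds, which can read related transcripts, so no ID2 value remained without these kinds.

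ID1 was at 0.03, 0.02 and 0.03 in PCGF1-shRNA arrays and at -0.02, -0.04 and -0.04 in NC arrays. The groups did not overlap in any of its 3 probe sets, but the distance was small, with a log2 fold change of 0.06 ± 0.04 (SE, 95% interval -0.03 to 0.14).

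ID4 was at -0.09, 0.03 and 0.02 in PCGF1-shRNA arrays and at -0.03, 0.07 and 0.03 in NC arrays. The groups overlapped on all 4 of its probe sets, which had both signs and lay between -0.14 and 0.04. The log2 fold change was -0.03 ± 0.05 (SE, 95% interval -0.15 to 0.08). Without PCGF1-shRNA replicate 1 it was 0.00.

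**Figure D2:**
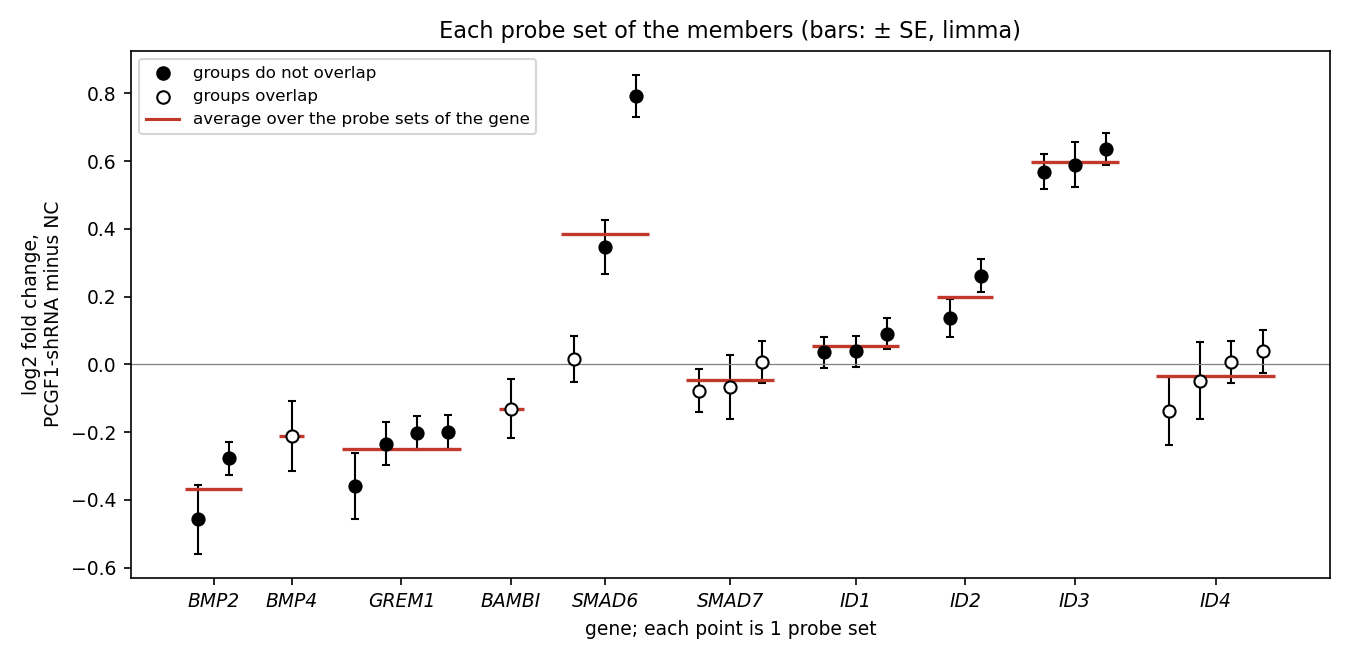
Each point is 1 of the 26 probe sets, placed by its log2 fold change (PCGF1-shRNA minus NC) with its SE from limma; filled points have groups that do not overlap, and red lines give the average of the gene. The probe sets of ID3 lie between 0.57 and 0.64, and those of SMAD6 spread between 0.02 and 0.79.

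Over the probe sets, 14 of 18 from target genes were above 0 and 8 of 8 from ligands and antagonists were below 0. The groups did not overlap in 16 of the 26, where the share over all probe sets was 29.5%. At the level of genes the groups did not overlap in 6 of 10, where the share of all genes was 32.7%. The 6 comprise 4 that were higher in PCGF1-shRNA arrays, where 17.1% of all genes were, and 2 that were lower, where 15.5% of all genes were. In the limma fit over all genes, 3 of the 10 were called higher (ID3, SMAD6, ID2), where 6.36% of all genes were, and 2 were called lower (BMP2, GREM1), where 4.63% of all genes were. The other 5 did not pass at an adjusted p under 0.05. Nothing is read from these counts, since this comparison chose the genes.

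Set side by side, the 6 target genes had a median log2 fold change of 0.13 and the 4 ligands and antagonists one of -0.23, with -0.01 over all genes. The mean log2 signal of the target genes was 0.09, 0.10 and 0.10 in PCGF1-shRNA arrays and -0.09, -0.09 and -0.10 in NC arrays. That of the ligands and antagonists was -0.13, -0.13 and -0.09 in PCGF1-shRNA arrays and 0.10, 0.15 and 0.12 in NC arrays. The opposite order was therefore present on each array, as the choice of these genes would bring about. The target median of 0.13 lies between 3 genes at 0.20 or above and 3 genes at 0.06 or below.

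**Figure D3:**
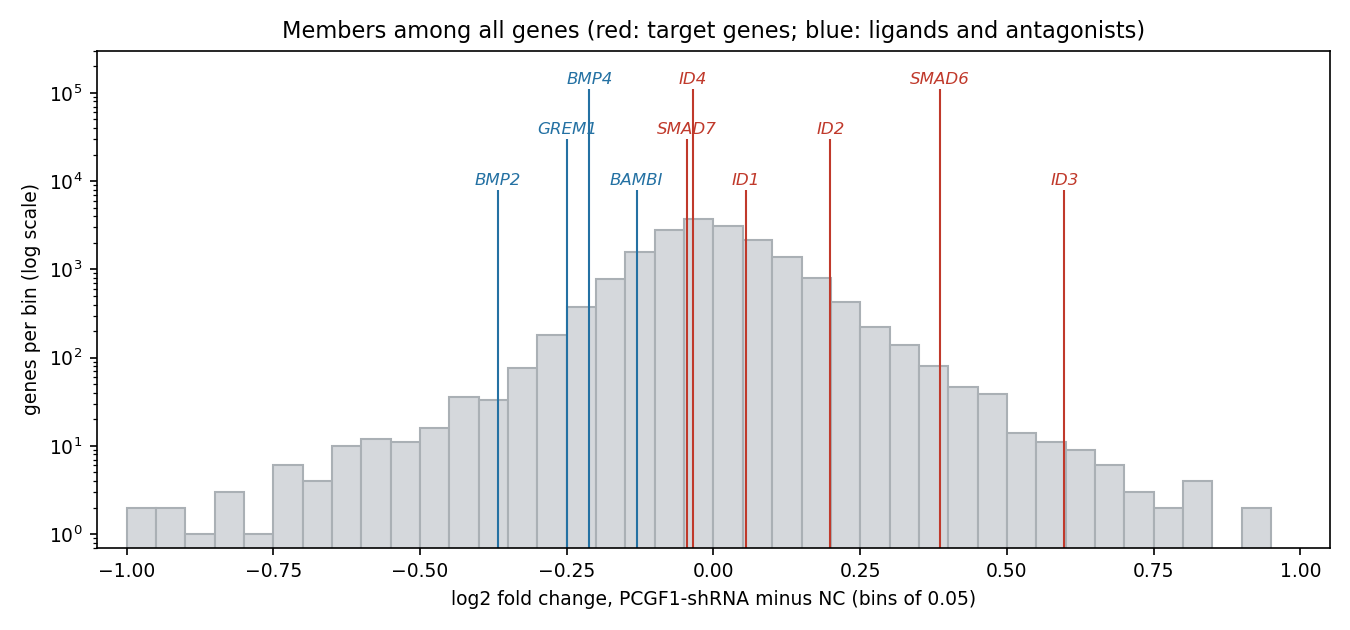
Grey bars count genes in bins of log2 fold change (PCGF1-shRNA minus NC, horizontal axis; log scale of genes per bin, vertical axis), with target genes as red lines and ligands and antagonists as blue lines whose height has no meaning. ID3 at 0.60 and SMAD6 at 0.39 lie in the right tail, BMP2 at -0.37 in the left one, and ID4 and SMAD7 near the middle; 4 genes below -1 lie outside the axis.

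The genes whose 6 array values lay nearest to those of ID3, by root mean square difference over the 6 arrays, were MFAP4 (0.0389), CEMIP (0.0417) and FAM20C (0.0423), all on the log2 scale. MFAP4 encodes a microfibril-associated protein, CEMIP a protein of hyaluronan breakdown and FAM20C a secretory pathway kinase. Their log2 fold changes were 0.61, 0.56 and 0.53. Nearest to BMP2 were OR1E1 (0.0425), an olfactory receptor gene, and the mitotic genes BUB1 (0.0430) and CCNB1 (0.0431), at -0.31, -0.30 and -0.34. With 3 arrays a group, such nearness mostly reflects a like difference between the groups.

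Which other parts of the pathway differed was tested over 75 genes in 6 lists by role. The lists were drawn up with earlier results of these data known, so their counts are not independent support. Of the 75 genes, 11 rose, 3 fell and 61 did not pass the test (limma, adjusted over all 18132 genes), where 6.36% of all genes rose and 4.63% fell. Their median log2 fold change was 0.03, against -0.01 over all genes. The rises lay between 0.18 and 0.39 and the falls between -0.28 and -0.16 on the log2 scale.

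**Figure D4:**
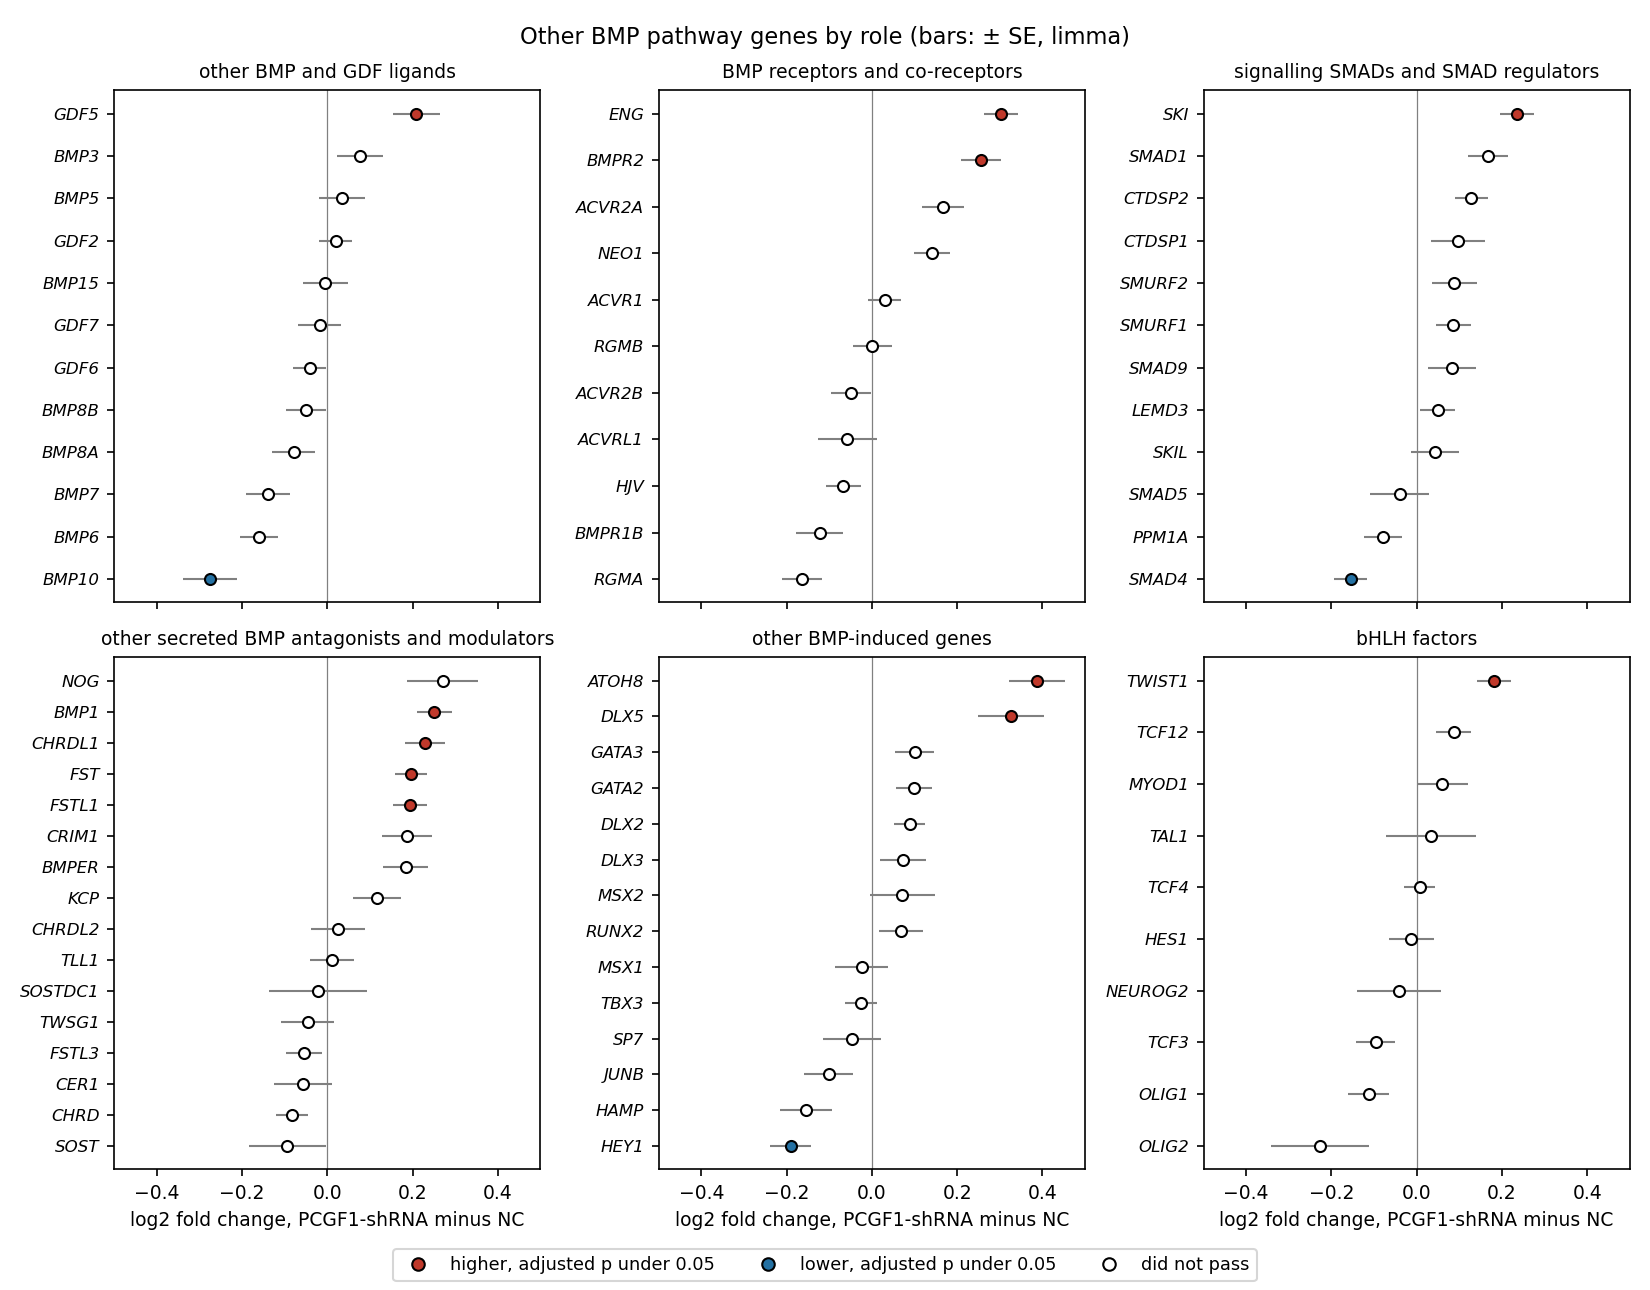
Each panel lists the genes of 1 role by log2 fold change (PCGF1-shRNA minus NC, horizontal axis) with the SE from limma; red points rose, blue points fell and open points did not pass at an adjusted p under 0.05. ENG and BMPR2 lead the receptors, and ATOH8 and DLX5 the induced genes, DLX5 with probe sets of both signs. Of 16 secreted modulators 4 rose and 0 fell, where 6.36% of all genes rose and 4.63% fell. The calls of CHRDL1, FST and FSTL1 were lost under some alternatives.

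Among 12 other ligands 1 rose, 1 fell and 10 did not pass, with a median of -0.03. BMP10, a ligand known from the heart, fell by 0.28 on the log2 scale (SE 0.06, limma adjusted p = 0.0320). GDF5, a ligand of joint development, rose by 0.21 (SE 0.05, adjusted p = 0.0477). Both rest on 1 probe set. The BMP10 call was lost without any 1 array other than PCGF1-shRNA replicate 2 (adjusted p 0.0552 to 0.103), and the GDF5 call without any 1 array other than NC replicate 1 (adjusted p 0.0681 to 0.138). Counting every alternative, the BMP10 call was lost under 8 of 14 and the GDF5 call under 10 of 14. Of the ligands that did not pass, BMP6 and BMP7 were lowest, at -0.16 ± 0.04 and -0.14 ± 0.05 (SE). BMP3 and BMP5 were highest among them, at 0.08 ± 0.05 and 0.03 ± 0.05. Of all 12 ligands 4 were above 0 and 8 below.

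Of 11 receptors and co-receptors 2 rose, 0 fell and 9 did not pass, with a median of 0.00. ENG encodes endoglin, a co-receptor for BMP9, BMP10 and TGF-beta. Its log2 signal was 0.16, 0.12 and 0.20 in PCGF1-shRNA arrays and -0.16, -0.12 and -0.15 in NC arrays. The groups were apart by 0.24, and it rose by 0.30 (SE 0.04, limma adjusted p = 0.00360), with all 5 probe sets higher, from 0.25 to 0.38. BMPR2, the BMP type II receptor, was at 0.11, 0.20 and 0.07 in PCGF1-shRNA arrays and at -0.16, -0.15 and -0.08 in NC arrays. It rose by 0.25 (SE 0.05, adjusted p = 0.0141), on 3 of 3 probe sets. That call was lost without NC replicate 1 or 2 (adjusted p 0.0504 and 0.0535) and on its most variable probe set (adjusted p = 0.130). The type I receptor genes ACVR1, ACVRL1 and BMPR1B were at 0.03, -0.06 and -0.12 and did not pass.

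Of 12 signalling SMADs and SMAD regulators 1 rose, 1 fell and 10 did not pass, with a median of 0.08. SKI, a nuclear repressor that binds SMADs, was at 0.15, 0.10 and 0.15 in PCGF1-shRNA arrays and at -0.06, -0.13 and -0.13 in NC arrays. It rose by 0.24 (SE 0.04, limma adjusted p = 0.0103), with 5 of 5 probe sets higher. SMAD4, the shared partner of the receptor-regulated SMADs, fell by 0.16 (SE 0.04, adjusted p = 0.0445). All 7 of its probe sets were lower, but leaving out any 1 array ended the call (adjusted p 0.0646 to 0.134), as did the median of its probe sets (adjusted p = 0.110). SMAD1, which carries the BMP signal, was at 0.17 ± 0.05, SMAD5 at -0.04 ± 0.07 and SMAD9 at 0.08 ± 0.06 (SE), and none passed.

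Of 16 other secreted antagonists and modulators 4 rose, 0 fell and 12 did not pass, with a median of 0.07. CHRDL1, a chordin-like antagonist, was at 0.15, 0.08 and 0.16 in PCGF1-shRNA arrays and at -0.04, -0.16 and -0.10 in NC arrays, and rose by 0.23 (SE 0.05, limma adjusted p = 0.0189). Its call was lost without NC replicate 2 or 3 or PCGF1-shRNA replicate 1 or 3 (adjusted p 0.0632 to 0.0698) and with the median of its probe sets (adjusted p = 0.0573). Its 3 probe sets were at 0.12 to 0.43. FST, or follistatin, which binds activins and some BMPs, rose by 0.20 (SE 0.04, adjusted p = 0.0152), a call lost without NC replicate 2 or 3 or PCGF1-shRNA replicate 3 (adjusted p 0.0559 to 0.0601) and on its most variable probe set (adjusted p = 0.0571). The follistatin-like gene FSTL1 rose by 0.19 (SE 0.04, adjusted p = 0.0207), but on probe sets of 0.04 and 0.35. That call was lost without any 1 array other than PCGF1-shRNA replicate 1 (adjusted p 0.0536 to 0.0759) and on the probe set at 0.04, which is not of the _s_at or _x_at kinds (adjusted p = 0.794). BMP1, which is no BMP ligand but a protease that cuts chordin and procollagens, rose by 0.25 (SE 0.04, adjusted p = 0.00920). Of its 5 probe sets 4 were higher, and they ranged from -0.03 to 0.57. The antagonist gene NOG was at 0.03, 0.39 and 0.20 in PCGF1-shRNA arrays and at -0.11, -0.06 and -0.03 in NC arrays, and did not pass (0.27 ± 0.08, SE). GREM1, also secreted, had the opposite sign to these 4 genes.

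Of 14 other genes induced by BMP in various tissues 2 rose, 1 fell and 11 did not pass, with a median of 0.07. ATOH8, a bHLH factor induced by BMP, was at 0.17, 0.19 and 0.15 in PCGF1-shRNA arrays and at -0.17, -0.11 and -0.36 in NC arrays. The groups did not overlap, and it rose by 0.39 (SE 0.06, limma adjusted p = 0.00973), with both probe sets higher at 0.37 and 0.40. On its most variable probe set alone it did not pass (adjusted p = 0.122). DLX5, a homeobox gene of bone, rose by 0.33 (SE 0.08, adjusted p = 0.0357), but on 1 probe set at 0.75 and another at -0.09, and the call was lost after quantile normalization (adjusted p = 0.0529) and without any 1 array other than NC replicate 2 (adjusted p 0.0539 to 0.0996). HEY1, a bHLH repressor also driven by Notch, fell by 0.19 (SE 0.05, adjusted p = 0.0406), a call lost without any 1 array other than NC replicate 2 (adjusted p 0.0738 to 0.124) and on its most variable probe set (adjusted p = 0.257). The homeobox genes MSX1 and MSX2 were at -0.02 ± 0.06 and 0.07 ± 0.08 (SE), and JUNB, an AP-1 subunit, was at -0.10 ± 0.06.

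Of 10 bHLH factors 1 rose, 0 fell and 9 did not pass, with a median of -0.00. TWIST1, a mesenchymal bHLH factor, rose by 0.18 (SE 0.04, limma adjusted p = 0.0274) on 1 probe set, a call lost without any 1 array other than NC replicate 2 (adjusted p 0.0651 to 0.0957). The TWIST1 call was also lost with the replicate block (limma adjusted p = 0.0776). The same held with the most variable probe sets (adjusted p = 0.103) and with single probe sets (adjusted p = 0.0670). The E proteins, which are the chief partners of ID proteins, were at -0.10 ± 0.05 for TCF3, 0.01 ± 0.04 for TCF4 and 0.09 ± 0.04 for TCF12 (SE). OLIG2, an oligodendrocyte lineage factor that ID2 and ID4 can bind, was at -0.35, -0.09 and 0.06 in PCGF1-shRNA arrays and at 0.30, -0.02 and 0.02 in NC arrays, with overlapping groups.

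Markers of cell types were counted in the same fit. Of 10 glial and glioma markers 0 rose and 0 fell, of 7 epithelial markers 0 and 0, and of 6 endothelial markers 0 and 0. Of 6 leukocyte markers 0 rose and 1 fell, LYZ, which encodes lysozyme, at -0.19 ± 0.04 (SE, limma adjusted p = 0.0291). Because the values are centred, whether any marker is present or absent cannot be read from them.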

How the data were processed

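The authors used RMA, per the submitters' processing notes, a method of background correction, joint normalization and summary of probes in log2 units; its version is not given in the sources used here. The deposited log2 values are centred, each probe set having a median of 0 over the 6 arrays to within 4.85e-07, a step that no source describes. The log base is taken from RMA. After 102 control probe sets were left out, 49293 remained, of which 44988 carried 1 gene symbol, 1832 several and 2473 none. A gene's value is the average of its single-symbol probe sets.

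Groups were compared by a two-sided linear model without covariates (limma 3.58.1, R 4.3.3) over all 18132 genes with Benjamini-Hochberg adjustment, calling genes at an adjusted p under 0.05. The procedure was tested on simulated data with independent errors, from which no error rate or sensitivity for these arrays is drawn. Standard errors and 95% intervals are limma's, and the number of arrays limits their precision. Overlap means that the ranges of 3 and 3 arrays share values. Members and lists were chosen with earlier results of these data known. Named are the 10 members, up to 4 called genes of each pathway list, the 3 nearest profiles of the members with the largest rise and fall, PCGF1, and, chosen after their values were seen, the genes given as not passing. Upstream sequences are RefSeq's, in GRCh38.p14. Alternatives were quantile normalization, array weights, array centring, a replicate block, other summaries of probe sets, single probe sets, and leaving out each array.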

Additional observations from a re-analysis of the deposited data

How the results depend on the processing

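Fewer genes were called with fewer arrays or degrees of freedom. Over all 18132 genes 1154 were higher and 840 lower. These counts were 553 to 812 and 395 to 590 when 1 array was left out, and 596 and 440 with a replicate block. They were 905 and 569 on the most variable probe sets and 1217 and 917 with array weights. With _s_at and _x_at probe sets left out, which leaves fewer genes, they were 773 and 587. As single probe sets 2120 were higher and 1451 lower, out of 49293 probe sets and not out of genes. The sample numbers give no sign of pairing (correlation of same-numbered arrays' deviations over genes -0.042, -0.0511 and 0.0116). Of the 10 members 3 were called higher and 2 lower, and without 1 array 2 to 3 higher and 2 lower. The block gave 2 higher and 2 lower, as did leaving out _s_at and _x_at probe sets. The most variable probe sets gave 3 higher and 1 lower. ID2 was not called with the block (limma adjusted p = 0.0510) or without NC replicate 3 (adjusted p = 0.0588). GREM1 was not called on its most variable probe set (adjusted p = 0.0682). Nothing is read from these counts.

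No called member changed sign under any alternative run. With the most variable probe set the log2 fold change was 0.091 for ID1, 0.26 for ID2, 0.64 for ID3, 0.79 for SMAD6, -0.46 for BMP2 and -0.36 for GREM1, and the target median was 0.18. With the median of probe sets GREM1 was at -0.22. With _s_at and _x_at probe sets left out the target median was 0.064, the value of ID1, since ID2 then has no value. Under that setting ID3 was at 0.59 and SMAD6 at 0.39. Without 1 array the log2 fold change of PCGF1 was -0.48 to -0.39, of ID3 0.58 to 0.62, of SMAD6 0.36 to 0.41, of BMP2 -0.41 to -0.32 and of GREM1 -0.27 to -0.24.

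Of the other pathway genes 11 rose and 3 fell, 5 to 8 and 0 to 1 without 1 array, 7 and 0 with the block, and 11 and 5 with array weights. Of these 14 calls 3 (ENG, SKI and BMP1) held under every alternative that gave 1 value per gene, 11 were lost under at least 1, and 0 changed direction. The GDF5 call was lost under 10 of 14 alternatives, and those of BMP10 and TWIST1 under 8 of 14. Of 13 alternatives, HEY1 and SMAD4 lost the call under 8, FSTL1 under 7 and DLX5 under 6. CHRDL1 and FST lost it under 5 of 13, BMPR2 under 3 and ATOH8 under 1. The single probe set alternative was set beside these calls only for genes with 1 probe set. Among the other genes, BMP1 had 1 of 5 probe sets and DLX5 1 of 2 with the sign opposite to the call. Signal over background is unknown, since the values are centred.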
